A study of Mus musculus with 14 samples.

Results

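The nuclear genes of the mitochondrial respiratory chain were followed in primitive erythroid precursors of the mouse yolk sac that lack KLF1, or both KLF1 and KLF2. Members were taken by name: every gene whose symbol on the array starts with Nduf, Sdha to Sdhd, Uqcr, Cox4 to Cox8 or Atp5. This gave 87 of the 12393 genes measured, each read from its brightest probe set, the set of short probes with the highest mean over the 14 arrays. They comprise 33 genes of complex I, 4 of complex II, 8 of complex III, 16 of complex IV, 17 of complex V and 9 assembly or supercomplex factors that share the prefixes. Ndufa4 was counted with complex IV, where its protein resides, and Cox7a2l, Ndufaf and Sdhaf genes with the assembly factors.

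The samples were captured by laser from frozen 8 µm sections of yolk sacs at embryonic day 9.5, and every sample carries the strain label FVB/N. There were 8 wild-type, 3 KLF1-/- and 3 KLF1-/- KLF2-/- samples, with 1 array each. The mutants came from pregnant females heterozygous for KLF1, or for both genes, and genotypes were read from embryo tails. Each biological replicate pooled 2 to 4 yolk sacs from 2 litters; the labels are silent on litters common to several replicates. RNA of 10 to 20 ng was amplified in 2 cycles from the poly(A) tail, which favours the 3′ ends of transcripts. Values are log2 expression, so a difference of 1 is a doubling of signal, and in such bulk samples fewer cells of a type and less RNA per cell cannot be told apart.

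The respiratory chain carries electrons from NADH, through complex I, and from succinate, through complex II, to ubiquinone, and on through complex III and cytochrome c to oxygen at complex IV. Complexes I, III and IV pump protons, and complex V, the ATP synthase, uses their return to make ATP. Some core subunits are coded by mitochondrial DNA and the rest by the nuclear genes described here, so that both genomes must be expressed together. Erythroid precursors also make heme partly inside mitochondria, and red cells of the definitive lineage discard the organelle as they mature. KLF1 is the erythroid member of the Krüppel-like factors and activates globin and other red cell genes, and KLF2 is a relative from the same family.

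No gene of the respiratory chain passed the test between genotypes. In limma, with Benjamini-Hochberg adjustment over all 12393 genes, 0 of 87 members passed an adjusted p of 0.05 in KLF1-/- against wild type, where 0.0403% of all genes did. In KLF1-/- KLF2-/- against wild type 0 of 87 passed, beside 0.0646% of all genes. Between the mutant genotypes 0 of 87 passed, beside 0.00807%. At an unadjusted p under 0.05 the members numbered 0, 2 and 0 in the same order, where 2.03%, 2.32% and 0.597% of all genes lay. Both of those members belong to the KLF1-/- KLF2-/- comparison: Cox6b2, a subunit isoform of complex IV, was higher, and Ndufaf4, an assembly factor of complex I, was lower.

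The median log2 difference over the 87 genes was 0.04 in KLF1-/- (58 above 0) and 0.02 in KLF1-/- KLF2-/- (48 above 0). Over all genes it was 0.01 in each. The single differences ran from −0.21 for Ndufaf4 to 0.44 for Ndufa10 in KLF1-/-, and from −0.38 for Ndufaf4 to 0.81 for Cox6b2 in KLF1-/- KLF2-/-. The 95% interval of the difference lay within a doubling or halving for 85 of 87 genes in KLF1-/- and for 80 of 87 in KLF1-/- KLF2-/-. Its median width to either side was 0.49.

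The sign of these medians rested on which arrays and which fit were used. The sample titles are numbered in 2 runs, with wild type 1 to 4 and the KLF1-/- arrays in the earlier numbers and wild type 9 to 12 and the KLF1-/- KLF2-/- arrays in the later ones. Nothing in the labels calls these runs batches. With the run as a block in the fit, the median difference was −0.11 in KLF1-/- (28 of 87 above 0) and 0.20 in KLF1-/- KLF2-/- (74 of 87 above 0), and 0 members passed an adjusted p of 0.05 in limma in either. At an unadjusted p under 0.05 the block left 4 members in KLF1-/- (Cox6b2 higher; Cox7a1, Ndufa5 and Ndufaf5 lower) and Cox6b2 alone in KLF1-/- KLF2-/-, beside 3.06% and 2.11% of all genes under the same rule. Between the mutants, which share no run, 7 of 87 members were higher in KLF1-/- KLF2-/- and 0 lower by that rule. Among all 12393 genes 134 were higher and 63 lower. No member passed an adjusted p of 0.05 there. Single arrays turned these medians too. The KLF1-/- median was −0.03 without KLF1-/- replicate 6 and −0.01 without wild-type replicate 12. The KLF1-/- KLF2-/- median was −0.00336 without wild-type replicate 4, −0.04 without replicate 12, and −0.02 and −0.07 without KLF1-/- KLF2-/- replicates 13 and 14. Among the 14 arrays, the interquartile range of all probe sets was widest on KLF1-/- replicate 6 (3.12) and narrowest on wild-type replicate 12 (2.31). Without both arrays the medians were −0.11 in KLF1-/- and −0.04 in KLF1-/- KLF2-/-. The part of this difference in array spread was not tested. With every array kept and Gapdh 3′ minus 5′ signal as a covariate, the medians were −0.00831 in KLF1-/- and −0.00127 in KLF1-/- KLF2-/-. Quantile normalization gave −0.0105 in KLF1-/- KLF2-/-, and default array weights gave −0.00445 in KLF1-/-. The sign differed from the main fit in 8 of 26 alternatives in KLF1-/- and 7 of 26 in KLF1-/- KLF2-/-. These counts do not measure robustness. Some alternatives could not move a median, such as another variance model or leaving out an array of the other mutant. The block and a fit on the arrays of 1 run gave the same median and were counted separately. Of the 28 genes chosen for naming, 18 took the other sign in KLF1-/- and 17 in KLF1-/- KLF2-/- when some single array was left out.

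**Figure D1:**
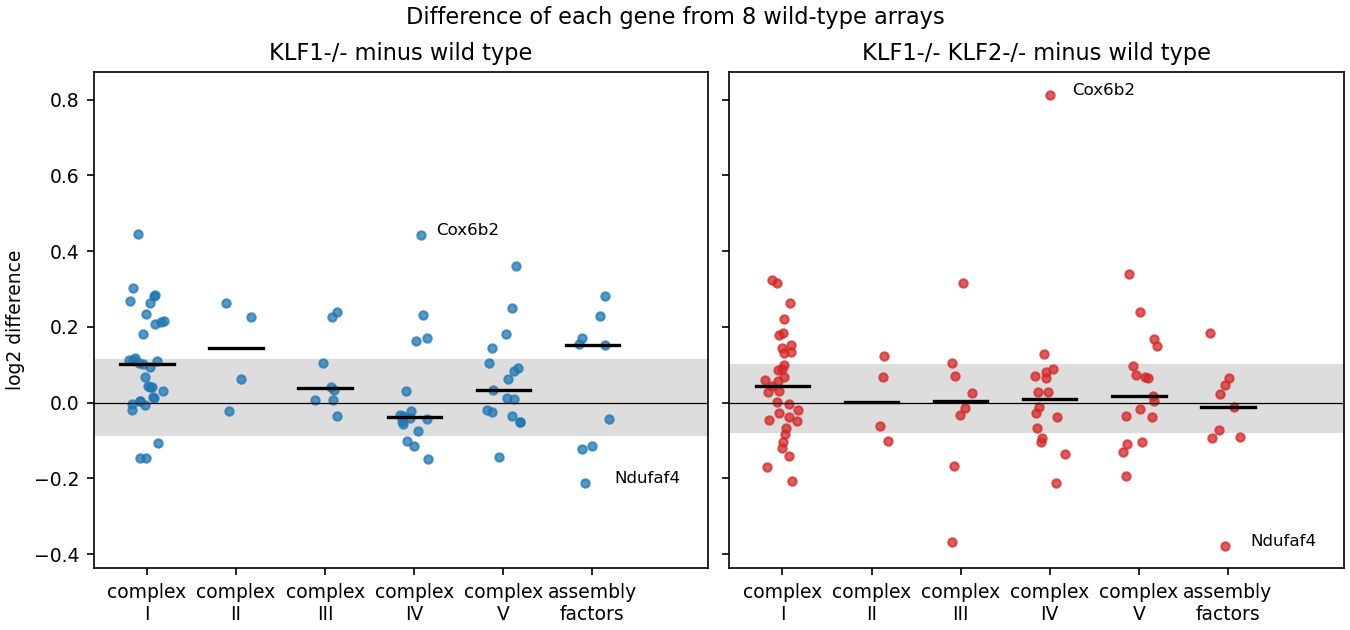
Log2 difference of each of the 87 genes from the 8 wild-type arrays (vertical axis), by complex (horizontal axis), in KLF1-/- on the left and KLF1-/- KLF2-/- on the right. Each point is 1 gene, the black bar is the median of the group, and the grey band holds the middle quartiles of all 12393 genes; Cox6b2 stands highest on the right at 0.81, and Ndufaf4 lowest at −0.38.

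The promoters of 4 members are shown, and no expression result below rests on these sequences. Cox6b2 and Ndufaf4 have the smallest p-values among the 87 genes in a comparison of genotypes. Uqcr11 and Atp5b lay on opposite sides when the wild-type arrays of the number runs were compared. Each window holds 300 bases around the annotated start of the gene, most of them before it, in RefSeq, assembly GRCm38.p6, written 5′ to 3′ on the strand of the gene. Cox6b2 lies on the minus strand at chr7:4753045-4753344, Ndufaf4 on the plus strand at chr4:24897833-24898132, Uqcr11 on the minus strand at chr10:80406772-80407071 and Atp5b on the plus strand at chr10:128083057-128083356. Capitals mark matches, on either strand, to CGCATGCG (the core of the site of NRF1, a regulator of many respiratory genes), CCGGAAG (a core read by ETS factors such as GABP) and CACCC (the box that KLF factors read, which appears as GGGTG on the other strand).
Cox6b2: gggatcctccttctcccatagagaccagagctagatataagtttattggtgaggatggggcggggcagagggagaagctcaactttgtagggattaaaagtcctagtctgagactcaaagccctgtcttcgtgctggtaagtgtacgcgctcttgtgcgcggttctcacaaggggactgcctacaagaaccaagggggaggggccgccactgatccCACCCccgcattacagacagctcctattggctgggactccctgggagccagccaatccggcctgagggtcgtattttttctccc
Ndufaf4: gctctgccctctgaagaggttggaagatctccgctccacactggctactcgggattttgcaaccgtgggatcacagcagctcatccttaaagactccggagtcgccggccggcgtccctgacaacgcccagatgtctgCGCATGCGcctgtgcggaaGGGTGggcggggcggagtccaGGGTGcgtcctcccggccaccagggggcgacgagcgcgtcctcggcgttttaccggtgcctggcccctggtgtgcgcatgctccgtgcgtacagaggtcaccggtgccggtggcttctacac
Uqcr11: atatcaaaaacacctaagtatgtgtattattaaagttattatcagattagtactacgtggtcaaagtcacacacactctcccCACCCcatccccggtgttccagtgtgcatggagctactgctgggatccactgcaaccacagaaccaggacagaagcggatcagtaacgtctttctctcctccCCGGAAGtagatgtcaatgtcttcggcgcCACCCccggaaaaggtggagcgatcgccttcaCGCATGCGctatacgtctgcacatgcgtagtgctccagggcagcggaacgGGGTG
Atp5b: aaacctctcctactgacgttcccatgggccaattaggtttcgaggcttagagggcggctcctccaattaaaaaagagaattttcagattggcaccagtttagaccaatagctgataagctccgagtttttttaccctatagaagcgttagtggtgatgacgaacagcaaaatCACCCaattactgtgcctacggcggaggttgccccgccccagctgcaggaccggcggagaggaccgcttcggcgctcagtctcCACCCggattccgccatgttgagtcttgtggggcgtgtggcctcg

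In Cox6b2 the window holds 1 CACCC box, 34 bases before the start. In Ndufaf4 it holds the NRF1 core 112 bases before the start and 2 CACCC boxes on the other strand. The Uqcr11 window has all of the motifs searched, with the NRF1 core 5 bases before the start, the ETS core 66 bases before it and 3 CACCC boxes. The Atp5b window has 2 CACCC boxes and neither of the other cores. The promoter table covered 73 of the 87 genes. Of these, 10 held the NRF1 core (13.7%, against 3.51% of the 9882 array genes with a promoter and 2.07% of all genes in the table), namely Atp5g2, Atp5j, Atp5k, Atp5l, Cox6a1, Ndufa8, Ndufaf4, Ndufaf5, Uqcr11 and Uqcrc1. The ETS core was in 20 of 73 (27.4%, against 16.4% and 9.93%), and CACCC in 38 of 73 (52.1%, against 67.0% and 59.8%). These are matches of letters and were not tested. By complex, the NRF1 core was in 4 of 15 genes of complex V, 2 of 5 of complex III, 1 of 11 of complex IV and 1 of 30 of complex I.

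Complex I takes electrons from NADH and is the largest of the complexes. Its 33 genes had a median difference of 0.10 in KLF1-/- (27 above 0) and 0.04 in KLF1-/- KLF2-/- (20 above 0), which the run block turned to −0.11 (11 above 0) and 0.22 (31 above 0). The 6 core subunits measured, which hold the flavin, the iron-sulphur clusters or the quinone site, gave 0.20 and 0.02, and the 27 accessory subunits 0.09 and 0.06. Ndufv1, the flavin subunit that accepts electrons from NADH, was at 9.34 ± 0.46 in wild type (log2 level, SD, n = 8), 9.52 ± 0.36 in KLF1-/- (n = 3) and 9.32 ± 0.38 in KLF1-/- KLF2-/- (n = 3). Ndufs1, the largest iron-sulphur subunit, was at 8.57 ± 0.36, 8.78 ± 0.48 and 8.60 ± 0.63. For both genes the means of the groups lay within the SD of the wild-type arrays.

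Ndufa10, an accessory subunit, had the largest positive difference of complex I in KLF1-/-. Its log2 levels there were 9.88, 10.82 and 9.17, and wild type ran from 8.86 through a median of 9.69 to 10.14. KLF1-/- replicate 6 alone lay above every wild-type array, and the difference of 0.44 (SE 0.347, limma adjusted p = 0.9998) did not pass. A dimmer probe set of the gene gave −0.06. Ndufa9, an accessory subunit near the quinone site, differed most in KLF1-/- KLF2-/-, by 0.32 (SE 0.335, adjusted p = 0.9999), and by 0.10 within its own number run. The lowest differences were those of the accessory genes Ndufc2 in KLF1-/- (−0.15) and Ndufb2 in KLF1-/- KLF2-/- (−0.21). For Ndufb2 the sign turned to 0.20 against wild type 9 to 12 alone.

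Complex II, succinate dehydrogenase, is coded by 4 nuclear genes, all measured, and also works in the citric acid cycle. Its median difference was 0.14 in KLF1-/- and 0.00 in KLF1-/- KLF2-/-, and −0.01 and 0.24 with the block. Sdha, the flavin subunit, was at 10.14 ± 0.58 in wild type (log2 level, SD, n = 8), 10.37 ± 0.39 in KLF1-/- (n = 3) and 10.04 ± 0.25 in KLF1-/- KLF2-/- (n = 3). Sdhb, the iron-sulphur subunit, was at 9.90 ± 0.34, 10.16 ± 0.39 and 10.02 ± 0.41, and had the largest positive difference of the complex in both mutants (0.26 and 0.12). The first was 0.04 without KLF1-/- replicate 6, and the second −0.06 without KLF1-/- KLF2-/- replicate 14. Sdhd, a membrane anchor, differed by −0.02 and 0.07. Sdhc, the other anchor, had an SD of 0.14 over the wild-type arrays, where the median SD of the 87 genes was 0.38.

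Complex III passes electrons from ubiquinol to cytochrome c. Its 8 genes had medians of 0.04 in KLF1-/- and 0.01 in KLF1-/- KLF2-/-, and −0.12 and 0.16 with the block. Uqcrfs1, the Rieske iron-sulphur subunit, was at 10.45 ± 0.41 in wild type (log2 level, SD, n = 8), 10.67 ± 0.61 in KLF1-/- (n = 3) and 10.77 ± 0.79 in KLF1-/- KLF2-/- (n = 3). Its 3 double-mutant arrays read 10.93, 11.46 and 9.90, so they spanned most of the wild-type range of 9.78 to 10.996 and passed it on 1 array. Uqcrc1, a core protein of the matrix arm, differed by 0.24 and 0.07. Its differences were −0.0076 without KLF1-/- replicate 6 and −0.16 without KLF1-/- KLF2-/- replicate 14. Uqcrh, the hinge protein, differed by −0.04 and −0.17.

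Uqcr11, a small supernumerary subunit whose promoter is shown above, had the lowest difference of complex III in KLF1-/- KLF2-/-. Its log2 levels were 10.65, 10.49 and 9.91 there and 10.86, 11.09 and 10.22 in KLF1-/-, and wild type ran from 9.79 through 10.59 to 11.66. All mutant arrays lay inside the wild-type range. The difference in KLF1-/- KLF2-/- was −0.37 (SE 0.374, limma adjusted p = 0.9999), and it was 0.11 against wild type 9 to 12 alone.

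Complex IV, cytochrome c oxidase, reduces oxygen. Its 16 genes had medians of −0.04 in KLF1-/- (5 above 0) and 0.01 in KLF1-/- KLF2-/- (8 above 0), and −0.12 and 0.16 with the block. The 10 genes of the general form gave −0.03 and 0.03. Cox4i1, the general isoform of the largest nuclear-coded subunit, was at 12.63 ± 0.34 in wild type (log2 level, SD, n = 8), 12.86 ± 0.28 in KLF1-/- (n = 3) and 12.72 ± 0.44 in KLF1-/- KLF2-/- (n = 3). Cox5a, another nuclear-coded subunit, was at 13.04 ± 0.30, 13.01 ± 0.34 and 13.07 ± 0.19.

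Of the 6 genes of complex IV that code for tissue or condition isoforms, Cox6b2, known from testis, had a positive difference in each mutant. Its log2 levels were 7.53, 8.11 and 7.49 in KLF1-/- KLF2-/- and 7.56, 7.11 and 7.34 in KLF1-/-, and wild type ran from 6.10 through 6.96 to 7.36. All 3 KLF1-/- KLF2-/- arrays lay above all 8 wild-type arrays, whereas KLF1-/- overlapped them. The difference was 0.81 (1.76-fold, SE 0.232, 95% interval 0.32 to 1.31, limma adjusted p = 0.736) in KLF1-/- KLF2-/- and 0.44 (SE 0.232, adjusted p = 0.9998) in KLF1-/-. Neither passed the adjusted threshold. Within its own number run the difference was 0.64 in KLF1-/- KLF2-/- and 0.61 in KLF1-/-, and between the mutant genotypes it was 0.37 (adjusted p = 0.9999). The gene has 1 probe set on the array. Its signal in wild type was low for this set: 47.8% of all genes were dimmer. Whether it lay above background was not tested.

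Cox6b2 was the only member whose KLF1-/- KLF2-/- arrays lay beyond all wild-type arrays, beside 0.75% of all genes. In KLF1-/- 0 members did so in these values, beside 0.573% of all genes, and 0 had all 6 mutant arrays on the same side of wild type, beside 0.21%. Some markers of other cells also stood higher on the KLF1-/- KLF2-/- arrays. The mean log2 level of 7 megakaryocyte markers ran from 7.73 to 8.12 there, from 7.45 to 7.61 in KLF1-/- and from 7.10 to 7.49 in wild type, and 7 of 7 had a positive difference in KLF1-/- KLF2-/-. For 8 macrophage markers the range was 7.07 to 7.17, against 6.61 to 6.75 and 6.44 to 7.03, with 6 of 8 above 0. For 8 mesenchymal markers it was 10.14 to 10.54, against 9.67 to 10.56 and 9.53 to 10.52, with 8 of 8 above 0, so this range overlapped those of both other genotypes. The median difference in KLF1-/- KLF2-/- was −0.05 for visceral endoderm markers (4 of 9 above 0) and 0.03 for endothelial markers (4 of 7 above 0). With the run as a block these became 0.18 (9 of 9 above 0) and 0.12 (6 of 7 above 0). Under the block the medians were 0.37 for megakaryocyte markers, 0.26 for macrophage markers and 0.37 for mesenchymal markers. The part of those cells in the Cox6b2 difference was not tested.

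The other isoform genes showed smaller differences. Cox4i2, an isoform of lung and of cells at low oxygen, differed by −0.15 in KLF1-/- and −0.03 in KLF1-/- KLF2-/-. The heart and skeletal muscle isoforms gave −0.11 and 0.07 for Cox6a2, −0.04 and −0.21 for Cox7a1, and −0.07 and −0.10 for Cox8b. Cox8c, known from testis like Cox6b2, gave −0.06 and −0.07. In wild type, 33.4% of all genes were dimmer than Cox4i2, 31.4% than Cox7a1 and 40.7% than Cox8b. For Cox6a2 the share was 58.0% and for Cox8c 78.9%. Whether these signals lay above background was not tested. The mean log2 level of 7 heart and skeletal muscle markers ran from 5.55 to 5.96 in wild type, 5.76 to 5.89 in KLF1-/- and 5.62 to 5.89 in KLF1-/- KLF2-/-.

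**Figure D2:**
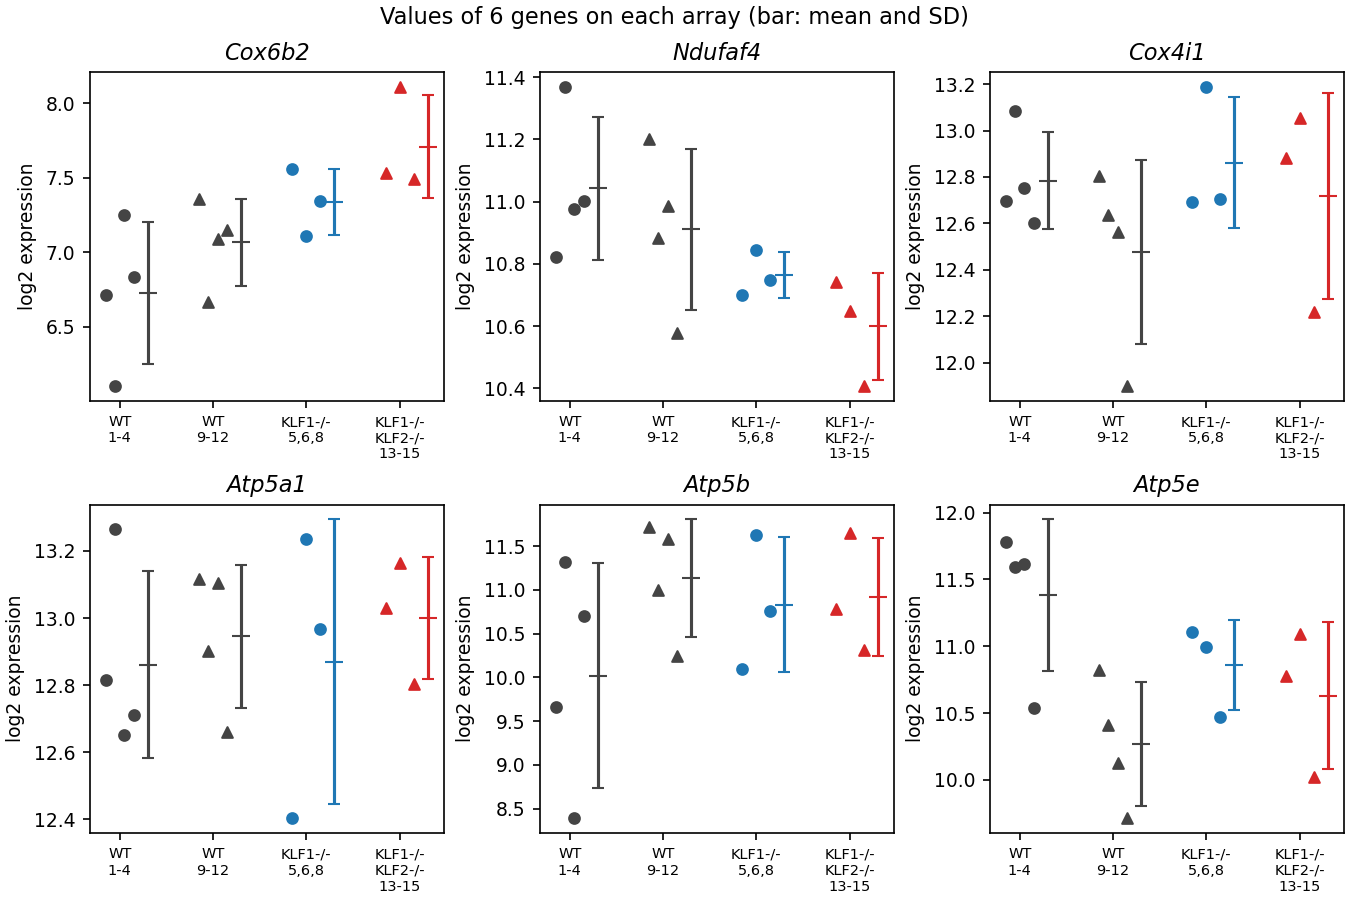
Log2 expression (vertical axis) of 6 genes on each of the 14 arrays, with wild type split by number run (horizontal axis, circles for the earlier run and triangles for the later); bars at the side of each group are its mean and SD. Cox6b2 reads 7.49 to 8.11 on the KLF1-/- KLF2-/- arrays and at most 7.36 in wild type, whereas Atp5b ranges from 8.39 to 11.72 within wild type.

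Complex V has a catalytic head, F1, and a membrane rotor and stalk, Fo. Its 17 genes had medians of 0.03 in KLF1-/- (11 above 0) and 0.02 in KLF1-/- KLF2-/- (10 above 0), and −0.15 (5 above 0) and 0.22 (16 above 0) with the block. The 5 head genes gave 0.09 and 0.17, and the 12 genes outside the head 0.01 and −0.01. Atp5a1, the alpha subunit of the head, was at 12.90 ± 0.23 in wild type (log2 level, SD, n = 8), 12.87 ± 0.42 in KLF1-/- (n = 3) and 12.9998 ± 0.18 in KLF1-/- KLF2-/- (n = 3). Atp5g1, 1 of the genes for the rotor ring, had the largest positive difference in KLF1-/- (0.36, SE 0.280, limma adjusted p = 0.9998). That difference of Atp5g1 was 0.13 within its number run, 0.18 without KLF1-/- replicate 6 and 0.67 without KLF1-/- replicate 8. Atp5mpl, a small subunit of the membrane part, had the lowest there (−0.14).

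Atp5b, the catalytic beta subunit, had the widest spread of all members in wild type. Its log2 levels were 9.66, 11.32, 8.39 and 10.71 in wild type 1 to 4, and 11.72, 10.998, 11.58 and 10.24 in wild type 9 to 12. The KLF1-/- arrays read 10.09, 11.63 and 10.76 and the KLF1-/- KLF2-/- arrays 10.78, 11.65 and 10.32. Every mutant array lay inside the wild-type range, and the SD in wild type was 1.12. The differences of 0.25 in KLF1-/- and 0.34 in KLF1-/- KLF2-/- (SE 0.593 for each, limma adjusted p = 0.9998 and 0.9999) became 0.81 and −0.22 within the number runs. Atp5e, the small epsilon subunit of the same head, gave 0.03 and −0.19 over all arrays and −0.52 and 0.36 within the runs.

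The 9 assembly and supercomplex factors had medians of 0.15 in KLF1-/- and −0.01 in KLF1-/- KLF2-/-, and −0.02 and 0.11 with the block. Ndufaf4, an assembly factor of complex I, had the lowest difference of all 87 genes in both mutants. Its log2 levels were 10.70, 10.84 and 10.75 in KLF1-/- and 10.74, 10.65 and 10.41 in KLF1-/- KLF2-/-, and wild type ran from 10.58 through 10.98 to 11.37. The mutant arrays lay in the lower part of the wild-type range, and KLF1-/- KLF2-/- replicate 15 lay below it. The difference was −0.21 (SE 0.144, limma adjusted p = 0.9998) in KLF1-/- and −0.38 (SE 0.144, adjusted p = 0.9999) in KLF1-/- KLF2-/-, and −0.28 and −0.31 within the number runs. A dimmer probe set of Ndufaf4 gave −0.51 and −0.82. Ndufaf1, another assembly factor of complex I, gave 0.28 and 0.18.

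**Figure D3:**
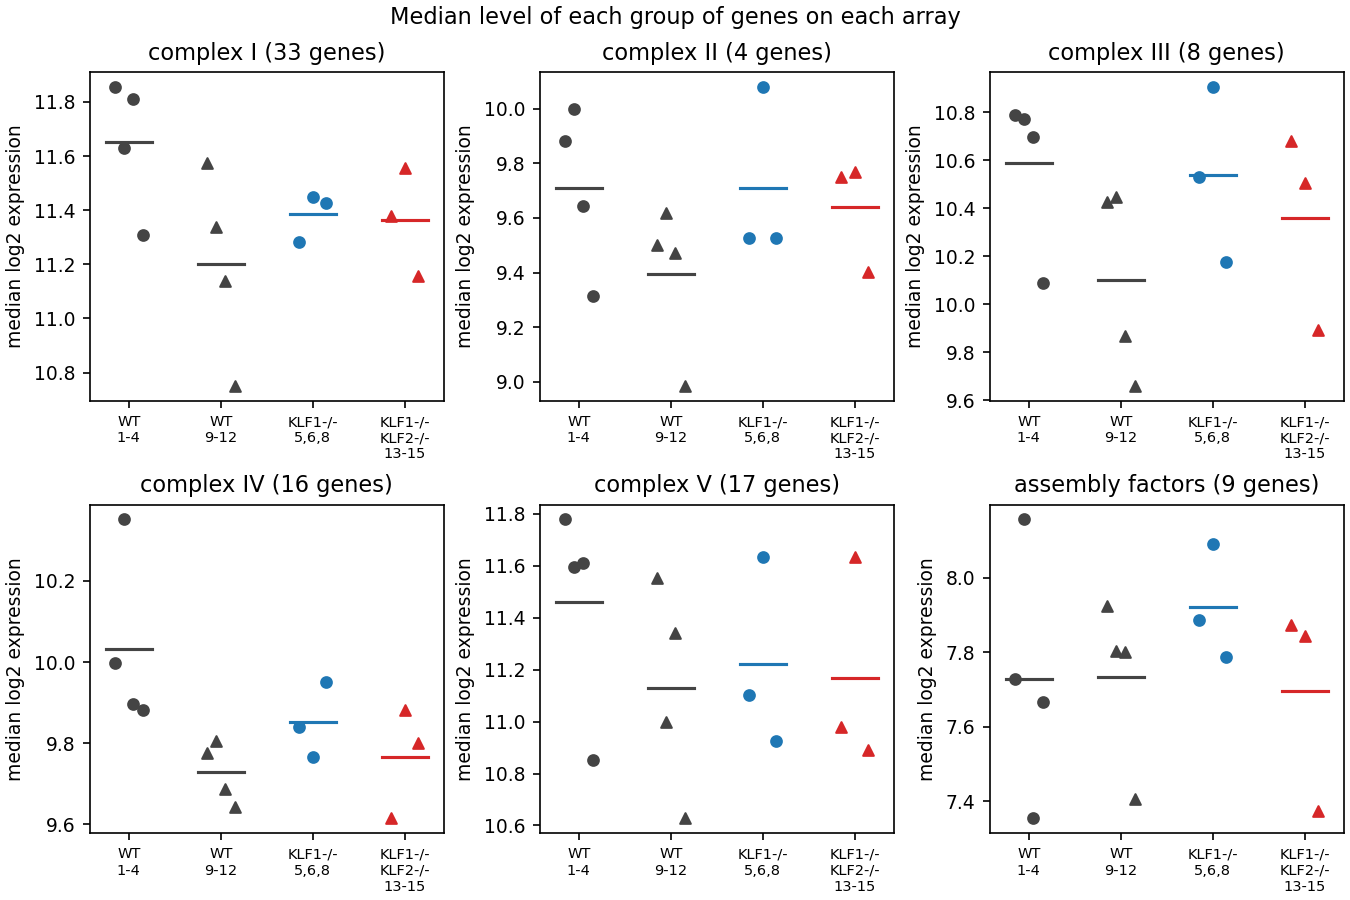
Median log2 expression (vertical axis) over the genes of each complex on every array, by genotype and number run (horizontal axis); horizontal bars are group means. In complex I the medians of the KLF1-/- arrays lie from 11.28 to 11.45 and those of the KLF1-/- KLF2-/- arrays from 11.16 to 11.56, inside the wild-type range of 10.75 to 11.85.

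The median difference between the wild-type arrays of the number runs was larger in size than the median of either mutant against wild type. The median SD over the 8 wild-type arrays was 0.38 for the members and 0.25 for all genes. The members were also brighter, with a median wild-type log2 level of 10.49 against 6.99 for all genes. Of the 87 members, 55 were in the brightest 10% of genes. Members were not compared with other genes of like brightness, here or in the counts that follow. Levels were higher in wild type 1 to 4 than in wild type 9 to 12 for 71 of 87 members, with a median difference of 0.32, where all genes gave 0.02 and 53.5% above 0. In limma 0 members passed an adjusted p of 0.05 in this comparison (0% of all genes did), and 25 were higher and 0 lower at an unadjusted p under 0.05, beside 5.08% of all genes that were higher. By complex, 30 of 33 genes of complex I were above 0 (median 0.40), 3 of 4 of complex II (0.29), 6 of 8 of complex III (0.31), 12 of 16 of complex IV (0.20), 14 of 17 of complex V (0.32) and 6 of 9 assembly factors (0.13). All 12 genes of complex V outside the head were above 0, with a median of 0.39.

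The largest differences were those of Atp5e (1.11), Uqcr11 (0.97), Atp5l of complex V (0.95), Cox7a1 (0.87) and Ndufa6 of complex I (0.85). For Atp5e, wild type 1 to 4 read 11.78, 11.60, 11.61 and 10.54 and wild type 9 to 12 read 10.82, 10.41, 10.12 and 9.72, so that the runs overlapped through wild-type replicate 4. Atp5b went the other way (−1.11), as did Ndufa9 (−0.45). The genes least spread over the wild-type arrays were Cox8c (SD 0.07), Sdhc (0.14), Cox6b1 (0.18) and Uqcrb (0.19).

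Other measures moved between the same wild-type arrays. Of 9 visceral endoderm markers 9 were higher in wild type 1 to 4 (median 0.43), and their mean log2 level ran from 11.24 to 12.36 there and from 10.68 to 11.89 in wild type 9 to 12. Of 8 erythroid markers 2 were above 0 (median −0.46), with mean levels of 11.41 to 11.77 against 11.49 to 12.45. The amount by which the Gapdh 3′ signal exceeded the 5′ signal, which rises as RNA is degraded or shortened in amplification, did not separate these arrays: it was 5.28, 4.22, 4.13 and 4.16 in wild type 1 to 4 and 4.66, 4.71, 4.61 and 3.90 in wild type 9 to 12 (log2). The same measure for actin was 5.52, 4.19, 4.97 and 4.13 in wild type 1 to 4. In wild type 9 to 12 it was 4.33, 4.55, 4.30 and 3.74, so the runs overlapped. The part of the marker differences or of RNA quality in the difference of the chain genes was not tested, and the labels do not explain the numbering.

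**Figure D4:**
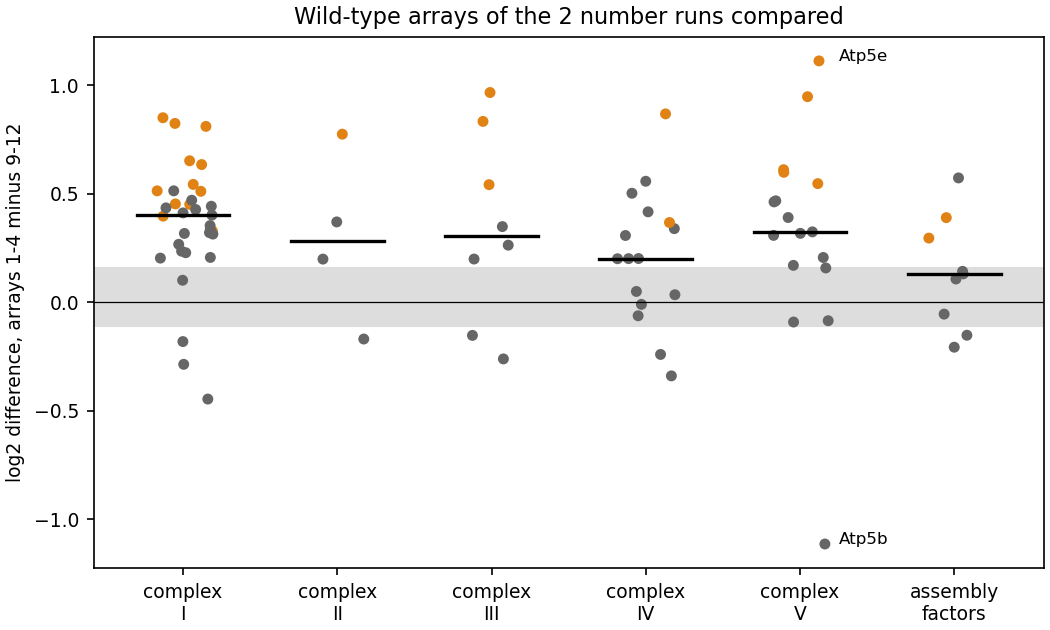
Log2 difference of each of the 87 genes between wild-type arrays 1 to 4 and 9 to 12 (vertical axis), by complex (horizontal axis); orange points have an unadjusted p under 0.05, black bars are medians and the grey band holds the middle quartiles of all genes. The medians lie from 0.13 for the assembly factors to 0.40 for complex I, and Atp5e at 1.11 and Atp5b at −1.11 are the extremes.

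The mutant arrays were also set against the wild-type arrays of their own run. In KLF1-/- 0 of 87 members had all 3 arrays beyond wild type 1 to 4, beside 3.13% of all genes. In KLF1-/- KLF2-/- 11 of 87 lay beyond wild type 9 to 12, beside 4.42% of all genes. Higher were Ndufa2, Ndufb6, Ndufb7, Ndufb10 and Ndufv3 of complex I, Cox6b1, Cox6b2 and Cox6c of complex IV and Atp5k and Atp5md of complex V, and Sdhc was lower. Among all genes 371 were higher and 177 lower by the same measure. Of the 10 that were higher, only Cox6b2 stayed beyond wild type when all 8 arrays were used.

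Mitochondrial genes outside the name prefixes were read from lists of related functions. In limma 0 genes passed an adjusted p of 0.05, in either mutant against wild type, among 23 further assembly factors, 16 electron carriers and quinone genes, 16 genes of the citric acid cycle and pyruvate dehydrogenase, 10 carriers and pores, 17 genes of mitochondrial DNA expression and 74 genes of the mitochondrial ribosome. At an unadjusted p under 0.05 there was 1 of these, Ssbp1, the single-strand binding protein of mitochondrial DNA, with a log2 difference of −0.40 in KLF1-/-. Over all genes 2.03% lay under that threshold in KLF1-/- and 2.32% in KLF1-/- KLF2-/-. The median differences in KLF1-/- and KLF1-/- KLF2-/- were 0.04 and −0.02 for the assembly factors, 0.10 and −0.02 for the electron carriers, 0.05 and 0.07 for the citric acid cycle, 0.21 and 0.08 for the carriers, −0.00205 and −0.04 for mitochondrial DNA expression, and 0.05 and −0.07 for the ribosome. The extremes were Lrpprc (0.21) and Uqcc2 (−0.21 and −0.22) with Foxred1 (0.32), Etfdh (0.49 and 0.35) and Dhodh (−0.17 and −0.27), Dlst (0.35) and Dlat (−0.21 and −0.34) with Suclg1 (0.34), Slc25a11 (0.34 and 0.45) with Slc25a5 (−0.09) and Vdac3 (−0.14), Gabpb1 (0.48 and 0.39) with Ssbp1 and Gabpa (−0.23), and Mrpl45 (0.55 and 0.40) with Mrpl42 (−0.45) and Mrps5 (−0.55). Of 74 ribosome genes 55 were higher in wild type 1 to 4 than in 9 to 12 (median 0.25).

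In glycolysis 1 of 13 genes passed an adjusted p of 0.05 in limma, in KLF1-/- KLF2-/- alone, beside 0.0646% of all genes. Pklr, the pyruvate kinase of red cells and liver, fell by 1.41 on the log2 scale in KLF1-/- KLF2-/- (limma adjusted p = 0.0319) and its difference of −1.30 in KLF1-/- did not pass (adjusted p = 0.0846). The other 12 of 13 glycolysis genes measured did not pass in either mutant, with Aldoa, an aldolase, at 0.54 and 0.35. At an unadjusted p under 0.05 in limma, 2 genes were higher and 1 lower in KLF1-/-, beside 2.03% of all genes. In KLF1-/- KLF2-/- 1 was higher and 1 lower by that rule, beside 2.32%.

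The targeted genes were read in the same arrays. Klf1 ran from 10.05 to 11.82 in wild type, 9.03 to 9.79 in KLF1-/- and 8.56 to 9.59 in KLF1-/- KLF2-/- (log2 level), so every mutant array lay below every wild-type array. Klf2 ran from 5.90 to 6.59, 5.99 to 6.53 and 6.36 to 7.003, and was not lower in the arrays labelled KLF1-/- KLF2-/-. Since the position of either probe set against its deletion is unknown here, these values do not check the labels. Erythroid and visceral endoderm markers were both bright, with mean log2 levels of 11.41 to 12.45 and 10.68 to 12.36 in wild type, so the respiratory chain levels above come from material that held transcripts of both.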

How the data were processed

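The authors deposited 1 table of log2 expression values per probe set, made with GCOS, RMA, affy and limma per the submitters' processing notes, where versions are lacking. RMA corrects background, equalises arrays and combines the probes of a set, so differences of weak signals are compressed and a shift common to most genes is removed. In the deposited log2 values the interquartile range of an array still ran from 2.31 to 3.12. No further normalization was applied to the log2 values the authors deposited.

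Of 22690 probe sets, 64 were controls and 20380 paired with 1 gene. The brightest probe set stood for each of 12393 genes. The members had 160 such probe sets, 46 of the 87 having more than 1, and 8 probe sets that pair with several genes, a member among them, were left out. All 87 gene identifiers were found in the RefSeq table. For the 73 member probe sets not used, the sign matched that of the brightest one for 44 in KLF1-/- and 51 in KLF1-/- KLF2-/-. No filter on dim genes was applied (85 members reached a log2 level of 6 on at least 3 arrays).

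The linear model (R 4.3.3, statmod 1.5.0 and limma 3.58.1, with two-sided tests from eBayes after lmFit) had 1 mean for each genotype over the 14 arrays, and Benjamini-Hochberg adjustment ran over all genes. Groups came from the sample titles. Wild-type number runs were compared by the same test on wild-type arrays alone. P-values measure the spread between these samples, and their number limits the precision. No arrays were identical (highest correlation 0.992). The fit was tested on simulated data. Tables, motif matches and figures used matplotlib 3.10.9, numpy 2.4.6 and pandas 2.3.3 in Python 3.11.15.

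The members and lists were chosen with earlier results of these data known. Named genes are, in each complex, those with the largest rise and fall in each mutant, the central subunits, the tissue isoforms, and any called or non-overlapping member; of other lists, called genes and the extremes. Ndufa5, Ndufa6, Ndufaf5, Atp5l, Sdhc, Cox6b1, Uqcrb, the members beyond the wild type of their own run and the genes with an NRF1 core were named after their values were seen. Ndufa4l2 was not analysed here. Alternatives tried were a block for the number run, other probe sets, a dim filter, quantile normalization, another variance model, weights on arrays, Gapdh as a covariate and fits without each array. Further fits, chosen after seeing the data, left out both arrays at the ends of the interquartile range or joined quantile normalization to the block.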

Additional observations from a re-analysis of the deposited data

Results flagged for a closer look

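Among 28 named genes, Cox4i1 had a wild-type array apart from the others. Wild-type replicate 12 read 11.90 (log2 level) where the other 7 wild-type arrays read 12.56 to 13.08. The gap to the nearest array exceeded Dixon's 95% critical value for 8 samples, which chance passes in about 1 in 20 groups. The low value was not particular to Cox4i1. Wild-type replicate 12 also had the lowest median over the 87 genes (9.95) and the lowest interquartile range (2.31) of the 14 arrays. Without that array the median difference of the 87 genes was −0.01 in KLF1-/- and −0.04 in KLF1-/- KLF2-/-.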

How the results depend on the processing

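With default array weights limma called 2, 25 and 46 of the 87 genes in KLF1-/- against wild type, KLF1-/- KLF2-/- against wild type, and between the mutants. These weights ran from 0.172 to 58.7, so a few arrays decided the fit. Under them 1 of the 25 and 20 of the 46 had the opposite sign to the fit with equal weights. Among the 28 named genes the differences between the mutants that did so came to 0.42 for Atp5g1, 0.78 for Ndufa10, 0.33 for Ndufaf1, 0.26 for Ndufs1, 0.24 for Sdhb and 0.38 for Uqcr11. With a strong prior on the weights (0.549 to 1.45), chosen after seeing the data, 0 were called, as in every other alternative fit, leaving out each array included (0 to 0). The median difference of the 87 genes ran from −0.11 to 0.10 in KLF1-/-, from −0.07 to 0.20 in KLF1-/- KLF2-/- and from −0.12 to 0.29 between the mutants, the outer values of each being the block (−0.11, 0.20 and 0.29) or an array left out. Leaving out 1 array gave −0.03 to 0.10, −0.07 to 0.15 and −0.12 to 0.08. Between the mutants the median was 0.06 without KLF1-/- replicate 6 and 0.08 without KLF1-/- KLF2-/- replicate 15, in place of −0.05. The causes were not tested. No paired analysis was possible because the genotypes share no replicate numbers.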
